A study of Homo sapiens with 6 samples.

Results

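Probes for 9 genes of the urokinase system and of extracellular proteolysis were followed after a microRNA mimic was introduced into A549, a human cell line that was established from a lung adenocarcinoma. The genes were PLAU, PLAUR, PLAT, SERPINE2, TIMP1, TIMP2, TIMP3, MMP14 and ADAM17, and every probe carrying one of these symbols in the platform annotation was taken. This gave 14 of the 47319 probes on the array, for 9 of 20046 named genes, and each probe was read on its own. The control group received a negative control mimic, while mimics of miR-608 and of miR-552-3p went into the other groups. There were 3 groups of 2 arrays. All cells were grown in RPMI-1640 with fetal bovine serum, were transfected with Lipofectamine RNAiMAX and gave total RNA 24 h later. By its title the study is about the genes that these microRNAs silence. The labels do not tell whether replicate arrays hold separately grown and transfected cells, so the p-values measure only the spread between arrays, which may be technical. Less RNA per cell and fewer cells with that RNA cannot be told apart in these bulk samples.

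Urokinase and tissue plasminogen activator are serine proteases that cleave plasminogen into plasmin, a broad protease that breaks down fibrin and matrix proteins. Urokinase is held at the cell surface by its receptor, and serpins such as SERPINE2 block both activators. Matrix metalloproteinases cut collagens and other matrix proteins and are inhibited by the TIMP proteins, while ADAM17 sheds growth factors and cytokines from the surface. In lung cancer cells these proteins are studied for their part in invasion. A microRNA acts by guiding an Argonaute protein to transcripts that pair with its seed, which lowers those transcripts.

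The mature sequences of the microRNAs whose mimics were transfected are shown because they define the treatments. They are RefSeq sequences in GRCh38.p14, from chr10:100975000-100975024 on the plus strand for miR-608 and from chr1:34669614-34669634 on the minus strand for miR-552-3p. Capitals mark the seed, bases 2 to 8.
hsa-miR-608: aGGGGUGGuguugggacagcuccgu
hsa-miR-552-3p: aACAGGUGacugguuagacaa
The seeds differ and share the same base at 2 of their 7 positions.

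The arrays were alike in brightness, with a median signal of 181.7 to 200.7 and 18550 to 19758 probes detected, where a probe counts as detected at a detection p under 0.05. Of the marker genes for epithelial and A549 cells, 8 of 9 were detected on all 6 arrays and AKR1C1 on none. The endothelial markers PECAM1, CDH5, VWF and KDR, the fibroblast markers COL3A1 and PDGFRB and the immune markers PTPRC, CD3E and LYZ were detected on no array. COL1A1, CD14 and ITGAM were detected on all 6. With miR-552-3p CD14 fell by 1.22 on the log2 scale (adjusted p = 0.00135), while ITGAM was at 0.27 (adjusted p = 0.421). The summed signal of the immune marker probes was 2457 to 2582 in the control, 2413 to 2488 with miR-608 and 1875 to 1881 with miR-552-3p, and that of the epithelial probes was 224143 to 233031, 230043 to 232098 and 191079 to 194242 in the same order. Single epithelial probes went both ways with miR-552-3p: of 12 tested, 5 fell, namely 3 of EPCAM and 1 each of CDH1 and ALDH1A1, and 2 rose, of KRT18 and KRT19. The part of these shifts in the results was not tested.

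With miR-608, 8 of the 12 member probes that passed the detection filter rose and 0 fell, where 28.4% of all 20749 tested probes differed, 14.0% higher and 14.4% lower. Of all these calls 49.5% were higher, against 58.3% with median scaling in place of quantile normalization. The risers were the probes for urokinase, its receptor and tissue plasminogen activator, 2 of 3 ADAM17 probes and the dimmer of the 2 TIMP2 probes. With miR-552-3p, 5 of 12 rose and 1 fell, where 30.9% of all tested probes differed, 14.7% higher and 16.1% lower. Of all these calls 47.7% were higher, against 60.5% with median scaling. These risers were urokinase, its receptor and SERPINE2, and the fall was that of the brighter TIMP2 probe. The median log2 fold change of the 12 probes was 0.89 after miR-608 and 0.28 after miR-552-3p, against 0.02 and 0.03 over all tested probes. The members and the lists below were chosen with earlier results of these data known. Their counts and medians beside those of all probes are thus a description and no test of the set. The member count with miR-552-3p fell from 6 to 3 when miR-552-3p replicate 2 was left out. Leaving out any 1 of the 4 arrays compared also lowered the count over all probes, from 5893 to between 2761 and 3094 for miR-608 and from 6403 to between 3546 and 3885 for miR-552-3p. Both comparisons share the same control arrays, and probes of the same gene are not independent of each other. Calls are from limma, two-sided, at an adjusted p under 0.05, and fold changes are given as log2 values ± SE with 2 arrays per group.

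**Figure D1:**
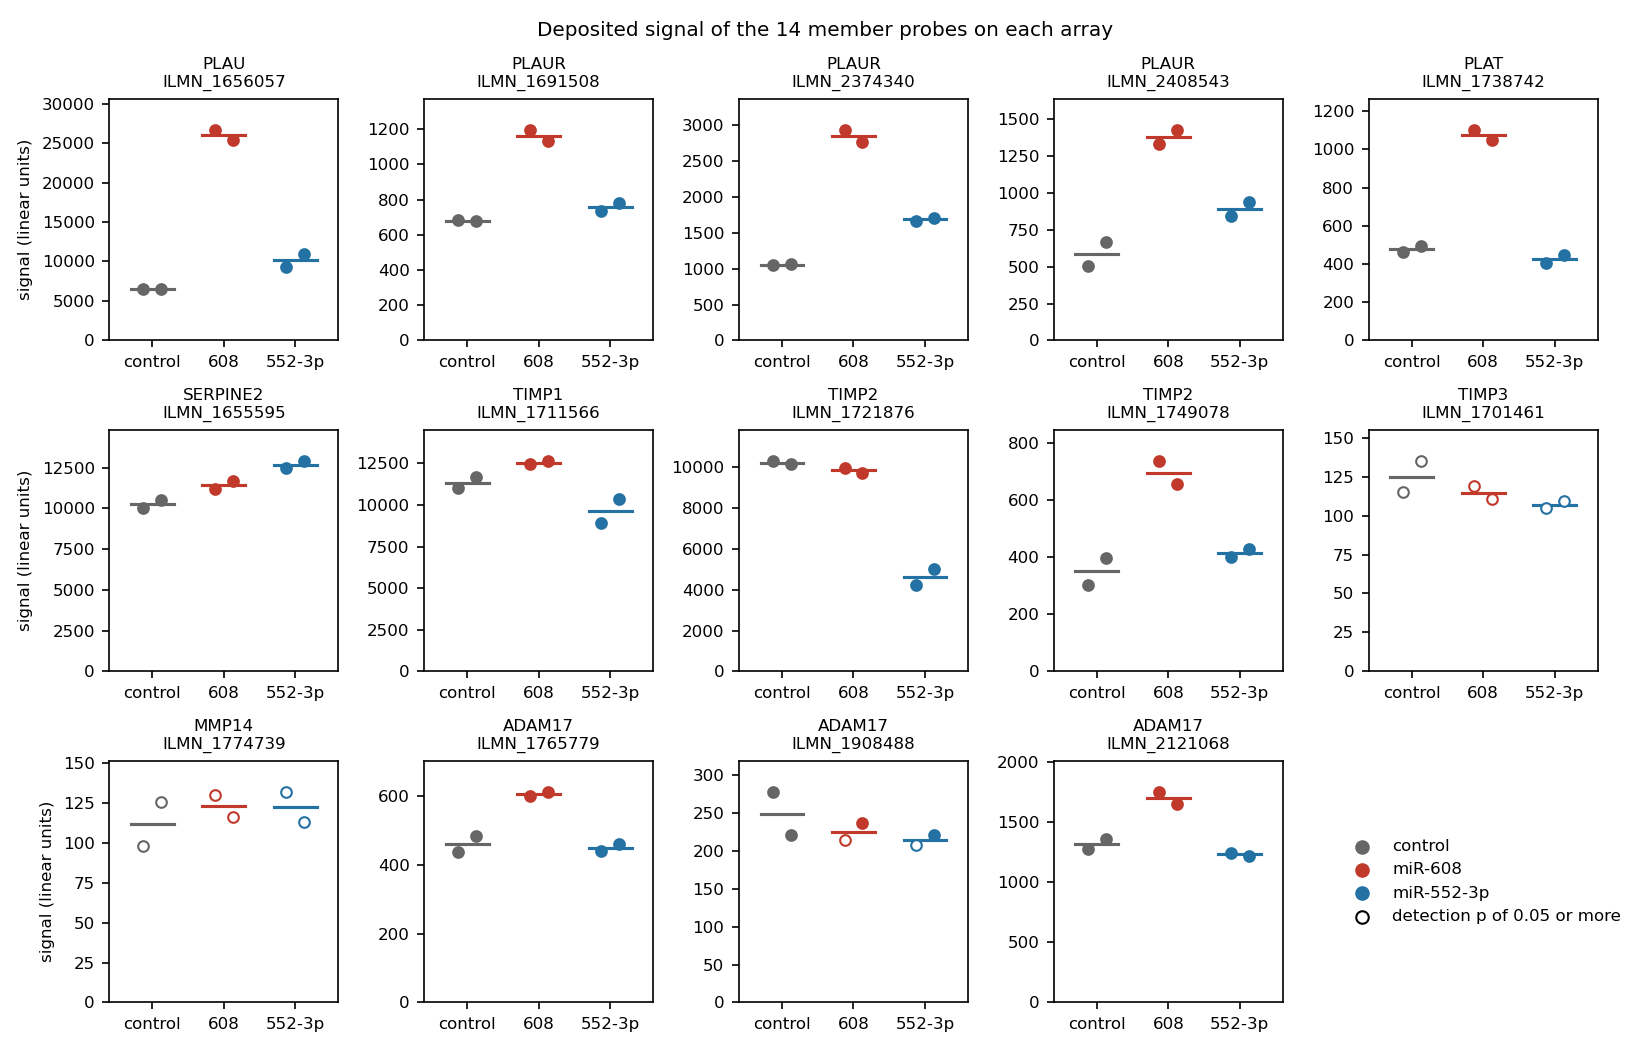
Deposited signal (linear units, axes from 0) of the 14 member probes on each of the 6 arrays, with a point per array and a line at the mean of each group. PLAU reached 25456 to 26611 with miR-608 against 6527 to 6570 in the control, while the TIMP3 and MMP14 points are open because they were not detected on any array.

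PLAU encodes urokinase, the plasminogen activator that binds the cell surface. Its probe, ILMN_1656057, gave a signal of 6527 and 6570 on the control arrays, 26611 and 25456 on the miR-608 arrays and 9339 and 10935 on the miR-552-3p arrays. The 3 groups did not overlap, with the control lowest and miR-608 highest. After normalization PLAU rose by 2.10 ± 0.09 with miR-608, or 4.28-fold (95% interval 3.65 to 5.01, adjusted p = 0.00158). By the size of its change this was rank 21 of the 20749 tested probes. With miR-552-3p PLAU rose by 0.67 ± 0.09, or 1.59-fold (1.36 to 1.87, adjusted p = 0.00585). Between the mimics PLAU differed by 1.42 ± 0.09, with miR-608 2.68-fold higher (2.29 to 3.14, adjusted p = 0.00077).

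PLAUR encodes the urokinase receptor, which is anchored in the membrane by a lipid and places urokinase next to its substrate. It had 3 probes, and all 3 followed the same order of groups. The brightest, ILMN_2374340, read 1048 and 1068 in the control, 2931 and 2765 with miR-608 and 1670 and 1709 with miR-552-3p. Its groups did not overlap. It rose by 1.71 ± 0.07 with miR-608 (3.26-fold, adjusted p = 0.00158) and by 0.95 ± 0.07 with miR-552-3p (1.93-fold, adjusted p = 0.00152), and was 0.76 ± 0.07 higher with miR-608 than with miR-552-3p (adjusted p = 0.00176).

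The PLAUR probe ILMN_2408543, which is annotated to another transcript of the gene than the other pair, read 502 and 670 in the control, 1335 and 1425 with miR-608 and 842 and 941 with miR-552-3p. It rose by 1.66 ± 0.18 with miR-608 (adjusted p = 0.0042) and by 1.04 ± 0.18 with miR-552-3p (adjusted p = 0.0119). Its control arrays lay further apart than those of the other PLAUR probes, and the adjusted p of its rise with miR-552-3p was 0.0576 once miR-552-3p replicate 2 was left out. ILMN_1691508 read 682 and 677 in the control, 1193 and 1133 with miR-608 and 734 and 778 with miR-552-3p. It moved least of the 3, by 1.08 ± 0.08 with miR-608 (adjusted p = 0.00195) and by 0.44 ± 0.08 with miR-552-3p (adjusted p = 0.0133). The latter rested on single arrays: its adjusted p was 0.0599 when control replicate 2 was left out, 0.0534 when miR-552-3p replicate 1 was, and 0.0617 when miR-552-3p replicate 2 was. Relative to ILMN_2374340 it shifted by -0.63 log2 units with miR-608 and by -0.51 with miR-552-3p. The arrays did not overlap in either shift, but with 2 arrays against 2 an exact permutation test cannot go below p = 0.333.

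PLAT encodes tissue plasminogen activator, which turns plasminogen into plasmin, the protease that breaks down fibrin. Its probe, ILMN_1738742, read 462 and 493 in the control, 1099 and 1050 with miR-608 and 403 and 448 with miR-552-3p. In deposited signal the miR-608 arrays stood above all others, and the miR-552-3p arrays lay just below the control. The normalized log2 values with miR-552-3p, 8.18 and 8.35, overlapped those of the control, 8.22 and 8.27. PLAT rose by 1.63 ± 0.09 with miR-608, or 3.10-fold (2.64 to 3.64, adjusted p = 0.00158). With miR-552-3p it was at 0.02 ± 0.09, with an interval of 0.862-fold to 1.19-fold (adjusted p = 0.918). The direct difference between the mimics was 1.62 ± 0.09, or 3.07-fold (adjusted p = 0.000638). PLAT and PLAU thus both rose with miR-608, while with miR-552-3p PLAU passed the test and PLAT did not; the difference between these genes was not tested.

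**Figure D2:**
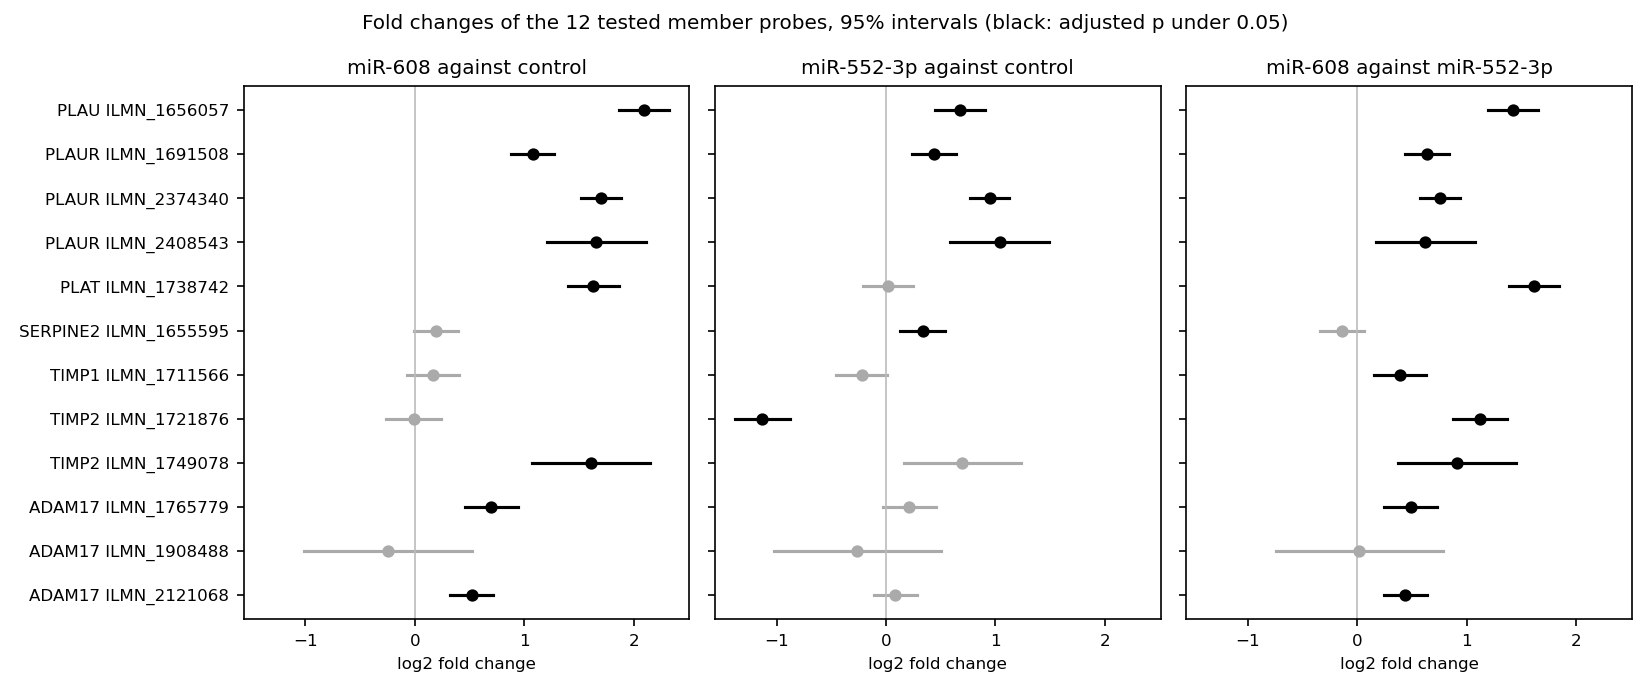
Log2 fold changes of the 12 tested member probes with 95% intervals in the 3 comparisons, black where the adjusted p was under 0.05 and grey otherwise. The PLAU, PLAUR and PLAT probes lie between 1.08 and 2.10 with miR-608, and the TIMP2 probes lie on opposite sides of 0 with miR-552-3p, at -1.13 and 0.70.

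SERPINE2 encodes protease nexin, a serpin that inhibits thrombin and both plasminogen activators. ILMN_1655595 read 10044 and 10483 in the control, 11168 and 11691 with miR-608 and 12473 and 12874 with miR-552-3p. The groups did not overlap, but the differences were small beside those of PLAU. With miR-552-3p SERPINE2 was 0.34 ± 0.08 higher (1.26-fold, adjusted p = 0.031). That call was lost when any of the 4 arrays compared was left out: the adjusted p was 0.105 and 0.101 for control replicates 1 and 2, and 0.11 and 0.104 for miR-552-3p replicates 1 and 2. With a replicate block it was 0.0555. With miR-608 it was at 0.20 ± 0.08 (adjusted p = 0.131), with an interval of 0.996-fold to 1.32-fold. The mimics differed by -0.14 ± 0.08, which did not pass (adjusted p = 0.238).

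TIMP1 is a secreted inhibitor of many matrix metalloproteinases. ILMN_1711566 read 11031 and 11680 in the control, 12479 and 12624 with miR-608 and 8948 and 10383 with miR-552-3p. The miR-608 arrays lay above the control and the miR-552-3p arrays below it. Neither difference passed, at 0.17 ± 0.09 with miR-608 (adjusted p = 0.242) and -0.22 ± 0.09 with miR-552-3p (adjusted p = 0.133). The mimics differed from each other by 0.39 ± 0.09, or 1.31-fold (adjusted p = 0.0267). This difference was lost when single arrays were left out: the adjusted p was then 0.0506 for control replicate 1, 0.0724 and 0.107 for miR-608 replicates 1 and 2, and 0.102 for miR-552-3p replicate 1. It was also lost when undetected probes were kept in the fit (adjusted p = 0.0772) and when the control arrays were kept out of it (adjusted p = 0.0532).

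TIMP2 inhibits metalloproteinases and also takes part in the activation of pro-MMP2 at the cell surface together with MMP14. Its 2 probes are annotated to the same transcript and behaved differently. The brighter, ILMN_1721876, read 10291 and 10162 in the control, 9983 and 9714 with miR-608 and 4234 and 5006 with miR-552-3p. The miR-552-3p arrays stood apart from the other arrays, below all of them. This probe fell by 1.13 ± 0.10 with miR-552-3p, or 2.19-fold (adjusted p = 0.00202). With miR-608 it was at -0.01 ± 0.10, with an interval of 0.835-fold to 1.18-fold (adjusted p = 0.953), and the mimics differed by 1.12 ± 0.10 (adjusted p = 0.00145).

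The dimmer TIMP2 probe, ILMN_1749078, read 302 and 399 in the control, 737 and 656 with miR-608 and 401 and 430 with miR-552-3p. The miR-608 arrays stood above the others, while control replicate 2 lay close to miR-552-3p replicate 1. This probe rose by 1.61 ± 0.21 with miR-608 (3.05-fold, adjusted p = 0.00672) and was at 0.70 ± 0.21 with miR-552-3p (adjusted p = 0.0603). The latter passed under 8 of 16 alternatives, with values of 0.39 to 1.01 and an adjusted p of 0.00433 to 0.185, and was 1.01 when control replicate 2 was left out (adjusted p = 0.0168). Relative to each other the probes shifted by -1.62 log2 units with miR-608 and by -1.83 with miR-552-3p. On the control arrays the brighter probe stood 6.11 and 5.39 log2 units above the dimmer, against 4.06 and 4.21 with miR-608 and 3.88 and 3.97 with miR-552-3p. No direction against the control is therefore given for TIMP2 as a gene. Between the mimics both probes were higher with miR-608, the dimmer by 0.91 ± 0.21 (adjusted p = 0.0248). This difference of the dimmer probe passed under 12 of 16 alternatives.

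**Figure D3:**
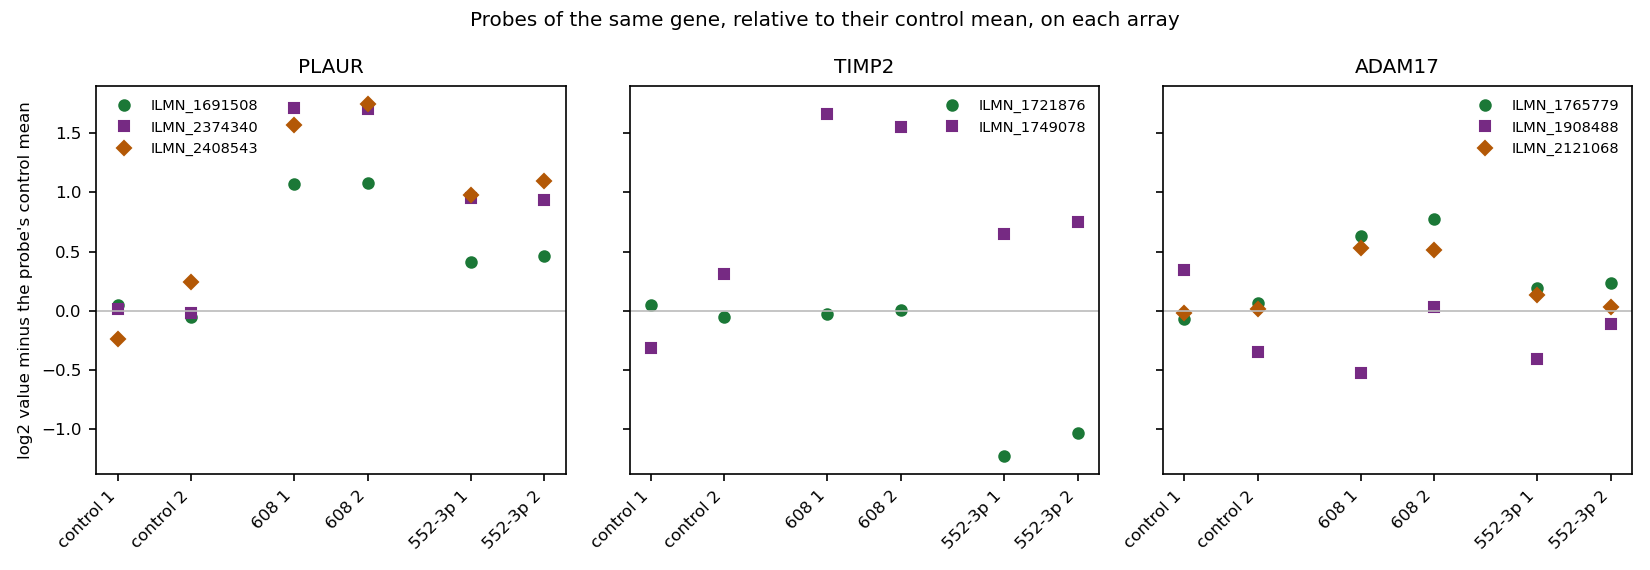
Normalized log2 value of each tested PLAUR, TIMP2 and ADAM17 probe on each array, minus the mean of that probe on the control arrays. The 3 PLAUR probes rise with both mimics, the TIMP2 probes part with both, and the dim ADAM17 probe ILMN_1908488 scatters around 0.

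TIMP3, a TIMP that binds to the matrix and also inhibits ADAM17, and MMP14, a membrane-anchored collagenase, each had 1 probe. TIMP3 (ILMN_1701461) read 115 and 135 in the control, 119 and 111 with miR-608 and 105 and 109 with miR-552-3p. MMP14 (ILMN_1774739) read 97.8 and 126 in the control, 130 and 116 with miR-608 and 132 and 113 with miR-552-3p. The lowest detection p among these 12 values was 0.726, so neither probe was well above background on any array and no fold is given.

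ADAM17 encodes the sheddase that releases tumour necrosis factor and several ligands of the growth factor receptor EGFR. ILMN_2121068 read 1275 and 1361 in the control, 1748 and 1648 with miR-608 and 1246 and 1220 with miR-552-3p. ILMN_1765779 read 439 and 486, 600 and 612, and 441 and 460 in the same order. In both probes the miR-608 arrays were the highest, and the deposited signals of ILMN_2121068 with miR-552-3p lay below the control although its normalized values lay slightly above. They rose with miR-608 by 0.52 ± 0.08 (1.44-fold, adjusted p = 0.00898) and by 0.70 ± 0.09 (1.63-fold, adjusted p = 0.00697). The first of these was at 0.51 without control replicate 1 (adjusted p = 0.0502). With miR-552-3p they were at 0.08 ± 0.08 (adjusted p = 0.469) and 0.21 ± 0.09 (adjusted p = 0.147), and both were higher with miR-608 than with miR-552-3p, by 0.44 ± 0.08 (adjusted p = 0.0106) and 0.49 ± 0.09 (adjusted p = 0.014). The third probe, ILMN_1908488, is annotated to an expressed sequence tag and was detected on 4 of 6 arrays. It read 277 and 221 in the control, 214 and 236 with miR-608 and 207 and 220 with miR-552-3p, and was at -0.24 ± 0.30 with miR-608 (adjusted p = 0.593) and -0.26 ± 0.30 with miR-552-3p (adjusted p = 0.563).

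In the direct comparison of the mimics, levels differed for 10 of the 12 member probes, all 10 higher with miR-608, where 36.5% of all tested probes differed, 18.3% higher and 18.2% lower. The median difference was 0.63 log2 units over the 12 probes and -0.01 over all tested probes. The 2 that did not pass were SERPINE2 and the dim ADAM17 probe. The count was 6 when any one of the miR-608 and miR-552-3p arrays was left out. Under these omissions PLAUR ILMN_2408543 had an adjusted p of 0.0937 to 0.168 and TIMP2 ILMN_1749078 one of 0.0757 to 0.102. ADAM17 ILMN_1765779 had 0.0628 when miR-608 replicate 2 was omitted, and 0.0659 and 0.0528 when miR-552-3p replicates 1 and 2 were. ADAM17 ILMN_2121068 had 0.0508 when miR-608 replicate 1 was omitted and 0.0524 when miR-552-3p replicate 2 was. Groups had no overlapping arrays for 10 of 12 member probes with each mimic against control and for 11 of 12 between the mimics, where 65.7%, 67.0% and 69.3% of all tested probes did not overlap.

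The promoters of PLAU and PLAUR are shown because both genes rose with both mimics. Of the 9 genes, 7 matched an entry of the RefSeq promoter table in GRCh38.p14, with 9 windows in all, of which the 250 bases before each start were searched on both strands. Windows were searched for the AP-1 motif TGANTCA, the CRE motif TGACGTCA, the SP1 motif GGGCGG, the TATA box TATAAA and the ETS motif CCGGAA. Of the PLAU windows the one with motifs was chosen for display. Capitals mark SP1 motifs in the PLAU window at chr10:73910882-73911131 on the plus strand and the AP-1 motif in the PLAUR window at chr19:43670170-43670419 on the minus strand.
PLAU promoter: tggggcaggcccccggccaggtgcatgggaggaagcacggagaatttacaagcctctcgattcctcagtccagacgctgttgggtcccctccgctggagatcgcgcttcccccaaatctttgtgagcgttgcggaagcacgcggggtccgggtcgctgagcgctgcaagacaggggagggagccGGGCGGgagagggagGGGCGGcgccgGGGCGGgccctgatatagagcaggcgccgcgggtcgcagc
PLAUR promoter: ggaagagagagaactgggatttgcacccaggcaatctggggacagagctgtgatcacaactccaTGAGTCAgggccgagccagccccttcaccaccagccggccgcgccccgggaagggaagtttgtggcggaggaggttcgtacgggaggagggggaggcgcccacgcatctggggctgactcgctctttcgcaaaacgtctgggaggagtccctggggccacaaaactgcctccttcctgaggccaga
The PLAUR window held 1 AP-1 motif, 186 bases before the start, and the other 8 windows held 0; 6.57% of the 35116 windows in the table held one. The PLAU window shown held 3 SP1 motifs, at 66, 51 and 40 bases before the start, and the other PLAU window held 0 of any motif searched; 42.6% of all windows held an SP1 motif. Windows of SERPINE2, TIMP1, TIMP3, MMP14 and ADAM17 held 1 to 5 SP1 motifs each, and ADAM17 also held 1 ETS motif, which 14.5% of windows held. The CRE motif and the TATA box were found in 0 of the 9 windows. These are letter matches in a short window and say nothing of binding.

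Other genes of these pathways are counted by probe, and the counts are to be read beside the shares of all tested probes given above, 28.4% called with miR-608, 30.9% with miR-552-3p and 36.5% between the mimics. Of 16 other plasminogen system genes, 8 had a tested probe, 11 probes in all. With miR-608, 1 of the 11 was called higher, that of MRC2, a receptor that takes up collagen, and it was not well above background on any control or miR-608 array. This call was lost in 10 of 13 alternatives, with an adjusted p of 0.0817 to 0.158 when any 1 of the 4 arrays compared was left out. The 1 call is 9.09% of the list's probes, against 28.4% of all tested probes. With miR-552-3p 1 was called higher and 2 lower, 27.3% of the list against 30.9% of all tested probes. MRC2, not well above background in the control, was at least 1.16-fold higher (adjusted p = 0.0128), a call lost in 2 of 13 alternatives. PLGRKT was 0.29 ± 0.08 lower (adjusted p = 0.0451), a call lost in 10 of 17 alternatives. SERPINF2, the main plasmin inhibitor of plasma, was at least 2.09-fold lower with miR-552-3p, where it was not well above background (adjusted p = 0.00379). The median of the list was 0.07 after miR-608 and 0.001 after miR-552-3p, against 0.02 and 0.03 over all probes.

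Of 20 other metalloproteinase genes and regulators, 11 had a tested probe, 13 in all, of which 2 rose and 3 fell with miR-608 and 3 rose and 2 fell with miR-552-3p. The called share was 38.5% with each mimic, against 28.4% and 30.9% of all tested probes. Both rises with miR-608 were of RECK, a membrane-anchored inhibitor of metalloproteinases, whose probes ILMN_1688630 and ILMN_2067269 rose by 1.17 ± 0.11 (adjusted p = 0.003) and 1.37 ± 0.16 (adjusted p = 0.00487). RECK was at 0.10 ± 0.11 and -0.10 ± 0.16 with miR-552-3p and did not pass, and it was 1.07 ± 0.11 and 1.47 ± 0.16 higher with miR-608 than with miR-552-3p (adjusted p = 0.00214 and 0.00246). The membrane-type metalloproteinase MMP24 fell by 1.22 ± 0.10 with miR-608 (adjusted p = 0.00221) and by 0.57 ± 0.10 with miR-552-3p (adjusted p = 0.0117). The mimics differed by -0.65 ± 0.10 (adjusted p = 0.00672). MMP15, another membrane-type enzyme, was at least 2.16-fold lower with miR-608 (adjusted p = 0.0102), but its adjusted p was 0.0581 when control replicate 1 was left out and 0.0535 when miR-608 replicate 2 was.

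With miR-552-3p, matrilysin (MMP7) rose on both its probes, by 0.68 ± 0.08 (adjusted p = 0.00416) and 0.73 ± 0.13 (adjusted p = 0.012). The second had an adjusted p of 0.0576 when control replicate 1 was left out, and of 0.0569 and 0.0551 when miR-552-3p replicates 1 and 2 were. MMP16, which like MMP14 sits in the membrane, rose by 0.72 ± 0.10 (adjusted p = 0.00726), and the inhibitor TIMP4 fell by 0.91 ± 0.13 (adjusted p = 0.00711). Between the mimics, 10 of the 13 probes differed, 3 higher and 7 lower with miR-608, or 76.9% against 36.5% of all tested probes, and the median of the list was -0.44 against -0.01 over all probes. Against the control the list median was -0.17 after miR-608 and 0.22 after miR-552-3p.

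Of 15 other ADAM proteases and ADAM17 regulators, 9 had a tested probe, 15 in all, of which 7 rose and 2 fell with miR-608 and 5 rose and 1 fell with miR-552-3p. These are 60% and 40% of the list, against 28.4% and 30.9% of all tested probes. Of the rises with miR-608, 3 were of probes of ADAM15 (0.50, 0.42 and 0.77), whose remaining probe was at 0.08 and did not pass. The ADAM15 calls were lost in 3 of 16, 5 of 17 and 3 of 16 alternatives in the same order. RHBDF1, which encodes iRhom1, a protein that helps ADAM17 reach the surface, rose by 1.56 ± 0.08 with miR-608 (adjusted p = 0.00158). It was at 0.19 ± 0.08 with miR-552-3p (adjusted p = 0.129), and the mimics differed by 1.38 ± 0.08 (adjusted p = 0.000636). RHBDF2, another gene of the list, was at -0.02, 0.11 and -0.03 on its probes with miR-608 and did not pass. With miR-552-3p these were at 0.50 (adjusted p = 0.0194), 0.57 (adjusted p = 0.0197) and 0.24 (adjusted p = 0.141). In the direct comparison they were at -0.52 (adjusted p = 0.0149), -0.46 (adjusted p = 0.0322) and -0.27 (adjusted p = 0.101). The called values failed in 4 and 3 of 16 alternatives with miR-552-3p, and in 2 and 7 of 16 directly. ADAM19 fell by 1.03 ± 0.08 with miR-608 (adjusted p = 0.00198) and rose by 0.51 ± 0.08 with miR-552-3p (adjusted p = 0.00852), a direct difference of -1.53 ± 0.08 (adjusted p = 0.000575). ADAM9 rose by 0.66 ± 0.08 with miR-608 (adjusted p = 0.0057) and by 0.40 ± 0.08 with miR-552-3p (adjusted p = 0.0197). Its difference between the mimics, 0.26 ± 0.08, did not pass (adjusted p = 0.0571). The median of the list was 0.28 after miR-608 and 0.24 after miR-552-3p.

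Of 11 membrane serine proteases, proprotein convertases and their inhibitors, 4 had a tested probe, and with miR-608 1 of these 4 probes rose and 2 fell, where 14.0% of all tested probes were higher and 14.4% lower. Furin (FURIN), a convertase that cuts the propeptides of MMP14 and ADAM17, fell by 1.37 ± 0.17 with miR-608 (adjusted p = 0.00619). It was at -0.09 ± 0.17 with miR-552-3p (adjusted p = 0.743), and the mimics differed by -1.28 ± 0.17 (adjusted p = 0.00486). The serine protease inhibitor SPINT2 rose by 0.57 ± 0.09 with miR-608 (adjusted p = 0.0105), but its adjusted p was 0.0533 when control replicate 2 was left out and 0.051 when miR-608 replicate 1 was. With miR-552-3p 1 of the 4 rose and 0 fell, where 14.7% of all tested probes were higher and 16.1% lower. The median of the list was -0.16 after miR-608 and 0.05 after miR-552-3p.

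Of 12 cathepsins and cystatins, 9 had a tested probe, 13 in all, of which 5 rose and 0 fell with miR-608 and 1 rose and 5 fell with miR-552-3p. These are 38.5% and 46.2% of the list, against 28.4% and 30.9% of all tested probes. The rises with miR-608 were of CTSL on 3 probes (0.44, 0.48 and 0.49), CTSZ (0.47) and CSTB (0.31). These calls were lost in 5 of 16, 3 of 16 and 3 of 17 alternatives for CTSL, 5 of 17 for CTSZ and 9 of 17 for CSTB. The rise with miR-552-3p was of the dimmest CTSL probe, ILMN_1694757, at 0.53, while the other CTSL probes were at 0.06 and 0.03. Cathepsin B (CTSB), a lysosomal protease that can be secreted by tumour cells, fell by 1.06 ± 0.07 and 1.05 ± 0.07 on its 2 probes with miR-552-3p (adjusted p = 0.00121 and 0.00128). CTSV fell by 1.05 ± 0.09 (adjusted p = 0.00198), and CTSH by 1.09 ± 0.12 on its brighter probe (adjusted p = 0.00362). The call of its dimmer probe, ILMN_1752451, which was not well above background with miR-552-3p, was lost in 10 of 15 alternatives, at an adjusted p of up to 0.152 when miR-552-3p replicate 1 was left out. With miR-608 the CTSB probes were at -0.16 ± 0.07 and 0.10 ± 0.07 and did not pass. Between the mimics 8 of the 13 probes were higher with miR-608 and 0 lower, or 61.5% against 36.5% of all tested probes. The median of the list was 0.17 after miR-608, -0.29 after miR-552-3p and 0.73 between the mimics.

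**Figure D4:**
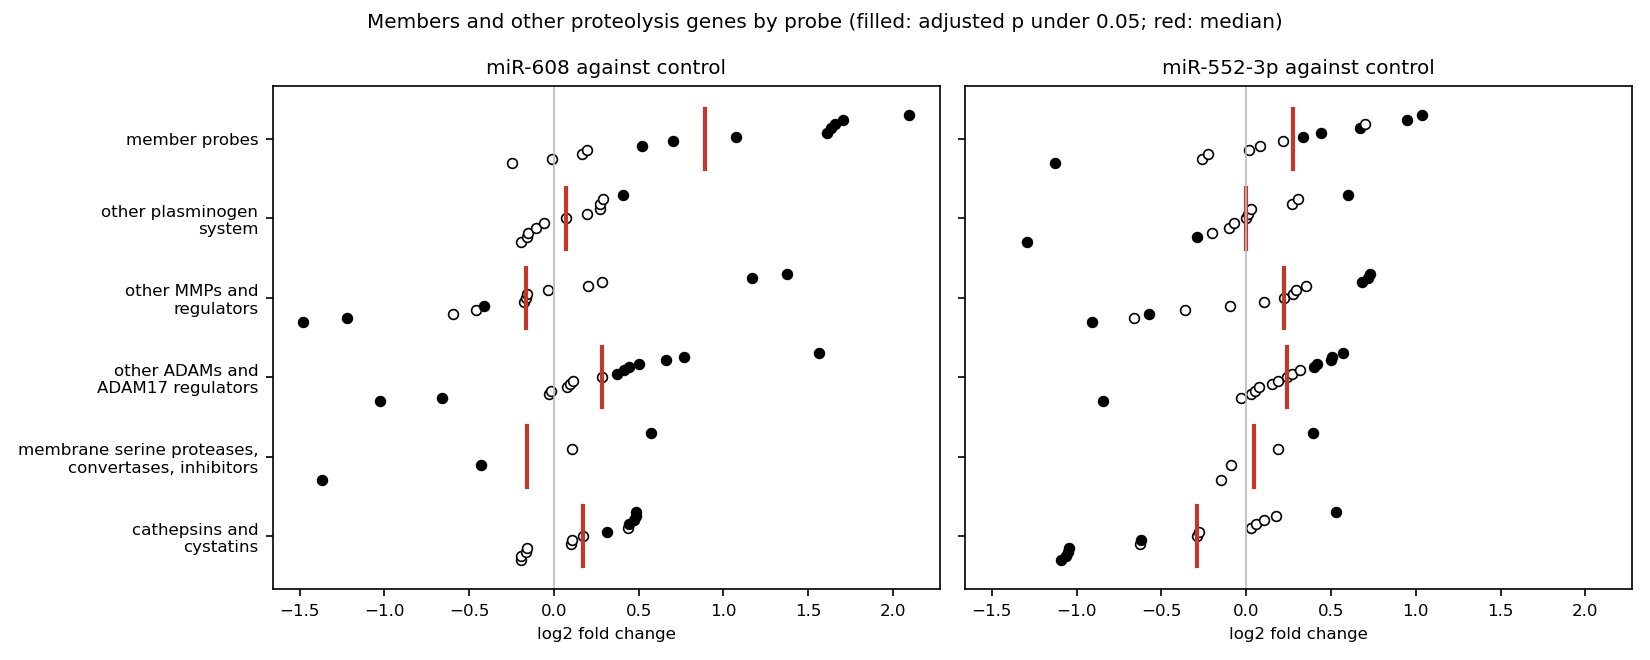
Log2 fold change of each tested probe among the members and the 5 lists of other proteolysis genes, for each mimic against control, filled where the adjusted p was under 0.05, with a red line at each median. The member median is 0.89 after miR-608 and 0.28 after miR-552-3p, and the cathepsin list holds 5 called falls with miR-552-3p.

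The genes whose level over the 6 arrays was most like that of 3 member probes are named as a description. The 3 were the member probes with the widest range of group means, and likeness was Pearson's r over 6 arrays, among 1824 probes of named genes detected on all arrays with a range of at least 1 log2 unit. All points share the same 3 groups of 2 arrays, so r mostly follows the order of the group means. Nearest to PLAU were DKK3 (r = 0.999), MSMO1 (r = 0.997), ATP5MK (r = 0.997), FSTL3 (r = 0.996) and DUSP6 (r = 0.994). Nearest to PLAUR ILMN_2374340 were BIK (r = 0.999), ZGPAT (r = 0.999), P4HA2, CRISPLD2 and ARHGAP19 (r = 0.998 for each). Nearest to PLAUR ILMN_2408543 were TMTC4 (r = 0.995), SEC14L1 (r = 0.993), CLIP4 (r = 0.989), DNAAF9 and MNAT1 (r = 0.981 for each). DKK3, a secreted protein, changed by 1.44 after miR-608 and 0.48 after miR-552-3p, and FSTL3, which binds activin, by 1.24 and 0.34.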

How the data were processed

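The authors deposited the signal intensity of each probe and array on a linear scale with a detection p-value beside it, per the file headers, and the submitters' processing notes name GenomeStudio 2011.1. Their deposited log2 values, held for 17751 probes, served as an alternative; how they were normalized is not stated. The sources used here give no genome build, slide or scan date, and do not state whether background had been subtracted. The neqc function of limma 3.58.1 under R 4.3.3 corrected and normalized the signals, using negative controls inferred from the detection p-values, an offset of 16 and quantile normalization. The 20749 of 47319 probes that reached a detection p under 0.05 on 2 or more arrays were kept, and each stayed its own row. One model over the 6 arrays (lmFit and eBayes, 3 residual degrees of freedom) gave two-sided tests adjusted by Benjamini-Hochberg over all kept probes. Fold changes after the offset understate changes of dim probes. For a probe not well above background in a group, the fold is a bound ("at least"): the higher of its own value and the lowest detected one was averaged over the arrays of that group and set against the mean of the brighter group. The members and lists were chosen with earlier results of these data known. Named are all member probes, up to 4 genes a list and comparison, taken from those with the smallest p, and the nearest patterns. Members were picked by the symbols of the platform annotation, in which 30112 probes had 1 symbol, 8 several and 17199 were not listed. Other genes go by the current RefSeq symbol of the annotated gene where there is one. The steps were tested on simulated data. The number of arrays limits the precision. Replicate numbers were not used to pair the arrays, and the deviations of same-numbered arrays correlated at -0.02 to 0.03. Quantile normalization removes array-wide shifts, so these values cannot tell whether same-numbered arrays were handled together. Background correction, offset, scaling, detection filter, probe choice, variance trend, samples fitted, a replicate block and each array left out were varied.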

Additional observations from a re-analysis of the deposited data

How the results depend on the processing

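Over 17 alternatives, the 36 fold changes of tested member probes gave 594 values, of which 539 kept direction and side of the threshold, 31 lost the call, 12 gained it and 12 changed sign. None of the 12 was of a difference called as reported. The rises of PLAU and of PLAUR ILMN_2374340 with each mimic, that of PLAT with miR-608 and the fall of TIMP2 ILMN_1721876 with miR-552-3p passed under every alternative run. With miR-608 the rises of PLAUR ILMN_1691508 and ILMN_2408543, TIMP2 ILMN_1749078 and ADAM17 ILMN_1765779 also passed in all 16 alternatives that kept the probe. The probes that changed sign were TIMP2 ILMN_1721876 with miR-608, at 0.12 with median scaling and -0.058 to 0.038 with 1 array left out, and TIMP1 with miR-552-3p, at 0.0024 with median scaling. PLAT with miR-552-3p lay between -0.072 and 0.10 with 1 array left out. With 1 array left out, ADAM17 ILMN_1908488 lay between -0.58 and 0.10 with miR-608, between -0.595 and 0.085 with miR-552-3p and between -0.26 and 0.30 in the direct comparison, which gave -0.0026 with median scaling. With median scaling, SERPINE2 (0.33, adjusted p = 0.0367) and TIMP1 (0.32, adjusted p = 0.0456) also passed as higher with miR-608, the median of all probes with miR-552-3p was 0.12 in place of 0.03, and 60.5% of its calls were higher in place of 47.7%.

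With no detection filter, 3617 probes differed after miR-608 and 4249 after miR-552-3p, in place of 5893 and 6403. With the brightest probe per gene, which leaves fewer member probes, 4 were called with miR-608 and 6 between the mimics. For TIMP2 this choice keeps ILMN_1721876, at -0.01 with miR-608, and drops ILMN_1749078, at 1.61. With 1 array left out, 2761 to 5117 probes differed with miR-608, 3546 to 5826 with miR-552-3p and 4906 to 7003 between the mimics, and member probes called were 7 to 8, 3 to 6 and 6 to 10. The lowest member count with miR-552-3p was without miR-552-3p replicate 2. With a replicate block, 4843, 5558 and 6746 probes and 8, 5 and 10 member probes were called. Whether arrays with the same number share more than a label is not known, and the block ended the member call of SERPINE2 with miR-552-3p. The other genes followed in this way were those with a call that the naming rule picked, and the nearest patterns. Not all of them are named above. Of their 1524 values, 1362 kept their call, 162 lost it and 0 changed sign. The slide block was not run because the files used here give no slide. The causes of these changes were not tested.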
